A study of Homo sapiens with 6 samples.

Results

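The 10 genes that interferons are known to induce as antiviral effectors, OAS1, OAS2, OAS3, IFIT1, IFIT2, IFIT3, MX1, ISG15, IFI6 and IFI27, were followed in MDA-MB-453 cells. They were chosen by name with earlier results of these data known, so their counts beside all genes are descriptions. All 10 were found among the 33451 genes of the count table. This established line derives from a human breast carcinoma and has a luminal, androgen receptor-positive character. One group received 100 nM 25(OH)D, the main circulating vitamin D metabolite, for 5 days, and the other received the alcohol solvent alone (control). mRNA was sequenced from 3 biological replicates of each group, all of the same unmodified line.

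Interferons are secreted by cells that sense viral nucleic acid, and they bind receptors coupled to JAK kinases. The kinases phosphorylate STAT proteins, which join IRF9 to form ISGF3, a transcription factor that binds the interferon-stimulated response element in the promoters of its targets. Those targets include proteins that detect, degrade or trap viral RNA and proteins, and many of them are expressed at a low level in tumour cells without infection.

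All 10 effector genes were higher in 25(OH)D than in control, by 1.39-fold for OAS3 to 2.53-fold for IFI6. Each of them passed an adjusted p of 0.05 in edgeR's quasi-likelihood test over 18183 genes, in which 17.3% of all genes tested were called higher. In all 10 the lowest 25(OH)D library lay above the highest control library, which was the case for 22.8% of all genes tested, and in none was the order the opposite, as it was in 22.9% of all genes. The median log2 fold change of the 10 genes was 1.0, against -0.01 over all genes tested. The limits drawn by the study, a log2 fold change over 1 with an unadjusted p under 0.05, were also applied to the fit used here. The calls were then 5 of the 10 genes (OAS2, IFIT3, MX1, ISG15 and IFI6) and 4.02% of all genes higher, and none of the 10 and 2.63% of all genes lower. These are calls of this fit and not the study's own.

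The libraries held 33268860 to 40928176 counts. Levels are given as CPM (the count relative to the library total, corrected by the TMM factor), and a count of 3 was worth 0.0720 to 0.0921 CPM. The 10 genes took 0.0355% to 0.0460% of all counts in control and 0.0679% to 0.0770% in 25(OH)D. Mitochondrial genes took 7.85% to 7.99% of the counts in control and 8.89% to 9.24% in 25(OH)D, and their part in the results was not tested. In RNA of whole cultures, a higher level per cell and a larger share of cells that express a gene cannot be told apart.

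The stretches of promoter that carry letters of the response element are shown first, since ISGF3 is the known regulator of these genes. The motif searched was GAAA, any 2 bases and GAAA on both strands, in the RefSeq promoter windows of GRCh38.p14, which reach 250 bases upstream of each transcript start. Capitals mark the motif, which reads TTTC, any 2 bases and TTTC where it lies on the other strand, and each stretch is written 5′ to 3′ on the strand of the gene without exon bases. Stretches are from the first listed window of a gene, so matches in exon bases or in later windows are not printed.
OAS3, chr12:112938301-112938351, plus strand: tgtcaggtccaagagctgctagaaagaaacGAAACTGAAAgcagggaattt
IFIT1, chr10:89392477-89392545, plus strand: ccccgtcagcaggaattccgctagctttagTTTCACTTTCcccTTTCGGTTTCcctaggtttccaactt
IFIT3, chr10:89327811-89327893, plus strand: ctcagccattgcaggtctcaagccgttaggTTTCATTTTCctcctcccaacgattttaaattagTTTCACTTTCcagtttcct
ISG15, chr1:1013354-1013422, plus strand: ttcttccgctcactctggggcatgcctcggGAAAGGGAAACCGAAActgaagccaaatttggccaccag
IFI6, chr1:27672246-27672378, minus strand: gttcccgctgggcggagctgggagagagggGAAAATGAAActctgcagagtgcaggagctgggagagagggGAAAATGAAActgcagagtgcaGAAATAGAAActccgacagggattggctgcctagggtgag
IFI27, chr14:94110598-94110677, plus strand: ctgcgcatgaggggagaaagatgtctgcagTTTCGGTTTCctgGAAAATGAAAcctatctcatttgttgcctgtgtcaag

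A window was listed for 8 of the 10 genes, all but OAS2 and IFIT2, and 7 of these 8 held the motif in at least 1 window. Of all genes with a window, 3.71% held it, and of all windows of this length, 3.02%. The 8 genes had 12 windows in all, since IFIT3, MX1 and IFI27 have several transcript starts, and 9 of the 12 held the motif. IFI6 carried 3 matches, at 156, 115 and 93 bases before its start. In ISG15 the matches at 113 and 107 bases overlapped and shared the middle GAAA. IFIT1 had both of its matches on the other strand, and IFI27 had 1 on each. OAS3 had 2 matches, at 143 and 12 bases, of which the second lies in exon bases and is not printed. IFIT3 had further matches at 94 and 51 bases before its second start, also not printed. In MX1 the motif lay at 196 bases before the third listed start and in neither of the other windows, and OAS1, the gene without a match, had a single window. Windows with more than 1 match were 0.225% of all windows. A match is a description of the letters in these windows, not a binding site shown by these data.

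**Figure D1:**
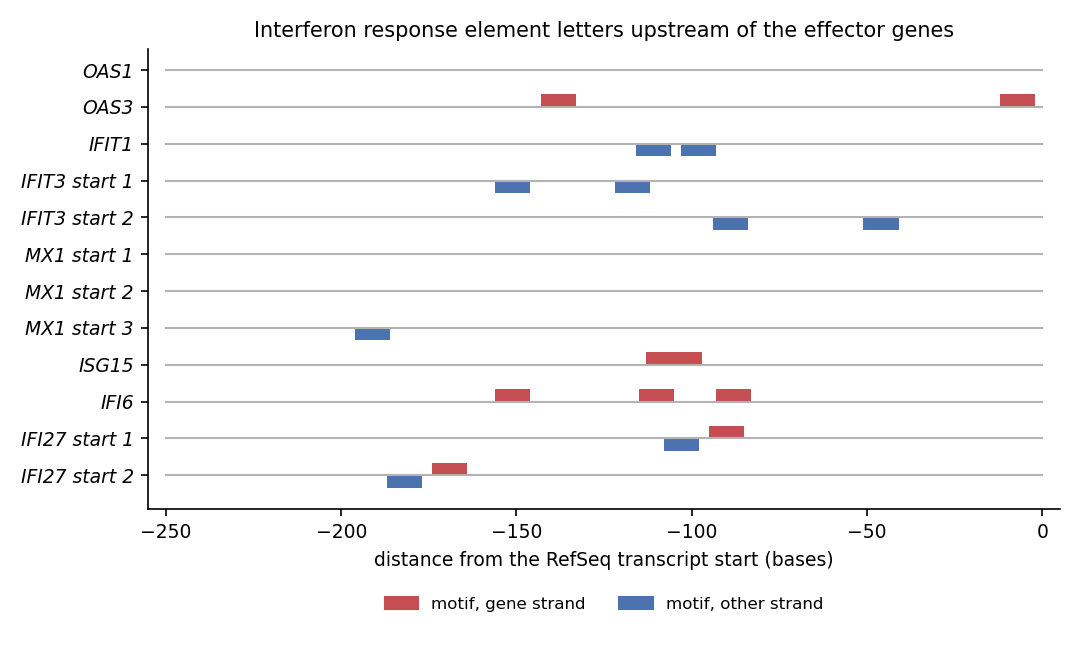
Positions of the response element letters (GAAA, any 2 bases, GAAA) in the RefSeq promoter windows of the effector genes, with the distance from the transcript start in bases on the horizontal axis and 1 line per window. Red boxes above a line are matches on the strand of the gene and blue boxes below it are matches on the other strand; the ISG15 box holds 2 overlapping matches, and OAS1 and the first and second starts of MX1 have none.

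The OAS genes encode 2'-5'-oligoadenylate synthetases, which are activated by double-stranded RNA and make short oligoadenylates as a second messenger. They lie side by side on the plus strand of chromosome 12 (GRCh38), with OAS1 at 112906777 to 112933222, OAS3 at 112938352 to 112973249 and OAS2 at 112978395 to 113011723. OAS1 had 26.1, 18.6 and 19.6 CPM in the control libraries and 37.3, 35.6 and 35.9 CPM in the 25(OH)D libraries. Control replicate 1 was the highest control, and the 25(OH)D libraries all lay above it. The means were 21.4 ± 4.07 and 36.3 ± 0.927 CPM (SD, n = 3), a log2 fold change of 0.76 (SE 0.103, edgeR adjusted p = 4.72e-05).

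OAS2 was the least abundant synthetase, with 10.3, 7.59 and 5.65 CPM in control and 17.7, 16.2 and 16.0 CPM in 25(OH)D. Its control libraries were spread more widely than those of the other 9 genes in relation to their mean, and none reached the 25(OH)D libraries. The log2 fold change was 1.08 (SE 0.156, edgeR adjusted p = 8.64e-05), from 7.85 ± 2.34 to 16.6 ± 0.907 CPM (SD, n = 3). OAS3, the largest of the synthetases, was the most abundant of them, with 118, 97.0 and 94.2 CPM in control and 152, 153 and 125 CPM in 25(OH)D. The gap between the groups was the narrowest of the 10 genes, since the third 25(OH)D library was only 1.06 times the first control library. Its log2 fold change of 0.47 (SE 0.0855, edgeR adjusted p = 5.75e-04) was also the smallest, from 103 ± 13.0 to 143 ± 15.9 CPM (SD, n = 3).

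Genes of the oligoadenylate pathway were measured too. ABCE1, which recycles ribosomes and is also known as a regulator in this pathway, was called lower, from 74.9 ± 1.10 to 62.2 ± 2.47 CPM (SD, n = 3; log2 fold change -0.27, SE 0.0493, edgeR adjusted p = 6.77e-04). It shared 469 of its 6265 exon bases with ANAPC10 and 276 with OTUD4, both on the opposite strand. Whether the counting used strand is not given in the sources used here, so the value of ABCE1 is uncertain. PDE12, a phosphodiesterase that degrades oligoadenylates, overlapped between the groups, at 17.5 to 20.7 CPM in control and 15.3 to 20.9 CPM in 25(OH)D (log2 fold change -0.01, edgeR adjusted p = 0.942).

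IFIT1, IFIT2 and IFIT3 encode tetratricopeptide repeat proteins that form complexes with one another, and IFIT1 binds RNA whose cap lacks the methyl marks of the host. They lie on the plus strand of chromosome 10, with IFIT2 at 89283694 to 89309276, IFIT3 at 89327894 to 89340971 and IFIT1 at 89392546 to 89406486. IFIT1 had 92.1, 72.9 and 68.4 CPM in control and 159, 157 and 139 CPM in 25(OH)D. Every 25(OH)D library was well above the controls, and control replicate 1 was again the highest of its group. The log2 fold change was 0.96 (SE 0.0888, edgeR adjusted p = 1.04e-06), from 77.8 ± 12.6 to 152 ± 11.4 CPM (SD, n = 3).

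IFIT2 had 23.2, 19.3 and 23.1 CPM in control and 37.4, 36.9 and 36.9 CPM in 25(OH)D. The 25(OH)D libraries were almost equal, and they were separate from the controls. The means were 21.8 ± 2.20 and 37.1 ± 0.254 CPM (SD, n = 3), a log2 fold change of 0.76 (SE 0.0748, edgeR adjusted p = 1.91e-06). IFIT3 moved from 20.4, 16.0 and 17.2 CPM in control to 37.3, 39.8 and 32.2 CPM in 25(OH)D. The groups did not overlap, and the third 25(OH)D library was the lowest of its group. The log2 fold change of IFIT3 was 1.03 (SE 0.0964, edgeR adjusted p = 1.23e-06), from 17.9 ± 2.25 to 36.4 ± 3.89 CPM (SD, n = 3).

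MX1 encodes a dynamin-like GTPase that blocks influenza and other viruses at an early step, and it lies on the plus strand of chromosome 21 at 41420304 to 41459214. Its level was 29.5, 21.8 and 19.9 CPM in control and 58.8, 55.6 and 45.7 CPM in 25(OH)D. Control replicate 1 and 25(OH)D replicate 3 were the libraries nearest to the other group, without meeting it. The log2 fold change was 1.17 (SE 0.123, edgeR adjusted p = 4.2e-06), from 23.8 ± 5.07 to 53.4 ± 6.81 CPM (SD, n = 3).

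ISG15 encodes a ubiquitin-like protein that is joined to other proteins during the interferon response, and its gene is on the plus strand of chromosome 1 at 1001138 to 1014541. It had 60.3, 50.4 and 47.8 CPM in control and 130.2, 125 and 109.7 CPM in 25(OH)D. The 25(OH)D libraries were all far above the controls. The log2 fold change was 1.20 (SE 0.0811, edgeR adjusted p = 3.83e-08), from 52.9 ± 6.59 to 122 ± 10.6 CPM (SD, n = 3).

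IFI6 and IFI27 encode small hydrophobic proteins of 1 family that are found in membranes, and IFI6 is known to limit apoptosis and flavivirus replication. IFI6, on the minus strand of chromosome 1 at 27666061 to 27672218, had 64.1, 55.0 and 49.4 CPM in control and 142, 142 and 143 CPM in 25(OH)D. The 25(OH)D libraries were nearly identical, and the lowest of them was 2.22 times the highest control. Its log2 fold change of 1.34 (SE 0.0721, edgeR adjusted p = 3.21e-09) was the largest of the 10 genes, from 56.2 ± 7.38 to 142 ± 0.741 CPM (SD, n = 3), and stood at rank 467 of the 18183 genes. OAS3, the gene that moved least, stood at rank 2217.

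IFI27, on the plus strand of chromosome 14 at 94104836 to 94116698, was among the least abundant, with 8.0, 6.37 and 6.63 CPM in control and 12.7, 11.9 and 10.1 CPM in 25(OH)D. The groups were separate, and the third 25(OH)D library was again the lowest of its group. The log2 fold change was 0.72 (SE 0.119, edgeR adjusted p = 2.78e-04), from 7.0 ± 0.874 to 11.5 ± 1.29 CPM (SD, n = 3).

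**Figure D2:**
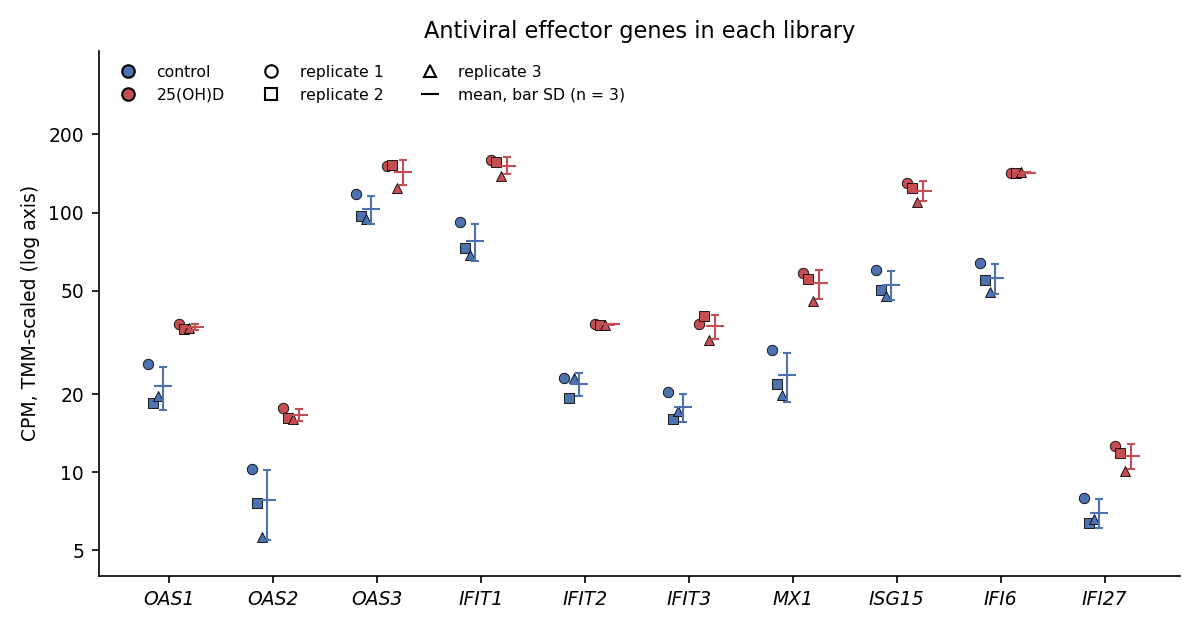
CPM, on a log axis, of each effector gene in the 3 control (blue) and 3 25(OH)D (red) libraries, with a symbol for each replicate and a dash with bars for the mean and SD (n = 3). For every gene the 25(OH)D points lie above the control points, and on this axis the gap is narrowest in OAS3 and widest in IFI6.

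Within a group, the same libraries tended to be high or low over the 10 genes. Control replicate 1 was the highest control library in all 10 genes, with a median deviation of 0.20 (log2) from the control mean. The third 25(OH)D library lay below the mean of its group in 9 of the 10 genes, with a median deviation of -0.14 (log2). Over all 18183 genes, control replicate 1 was above the control mean in 9202, and the third 25(OH)D library was above its group mean in 9192. Among the 105 tested genes of the pathway lists described below, control replicate 1 was above its group mean in 79 and the third 25(OH)D library in 36. When control replicate 1 was left out, all 10 genes had a larger log2 fold change, which follows from dropping the highest control library. The values then lay between 0.59 for OAS3 and 1.45 for IFI6.

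**Figure D3:**
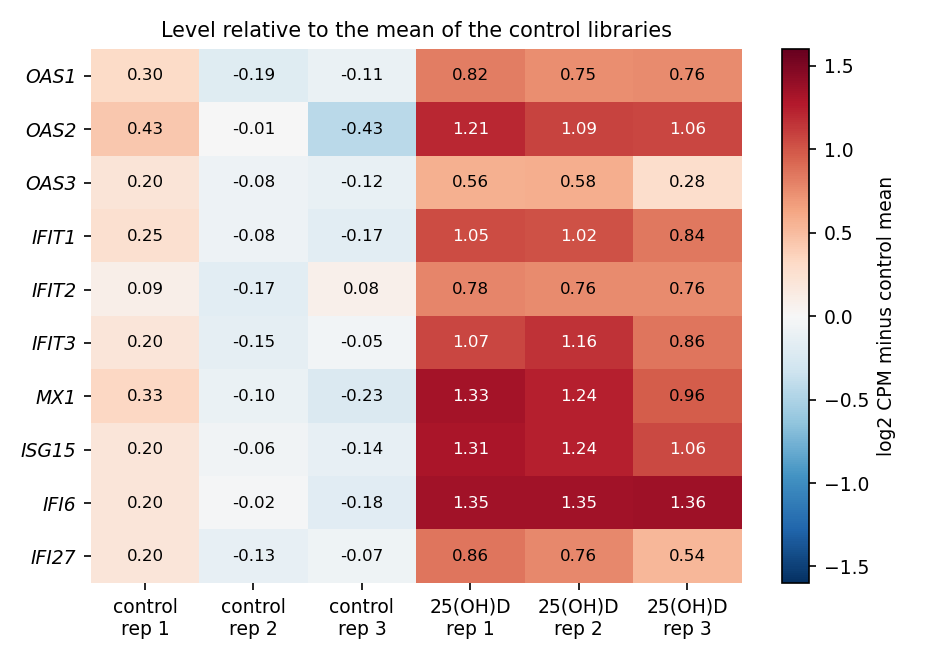
Log2 CPM of each effector gene in each library relative to the mean of the control libraries, with genes as rows and libraries as columns, and colour and printed value giving the difference. The column of control replicate 1 is above 0 for every gene, and all 25(OH)D columns are above every control column within a row.

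Per length, the order of the genes was the same in both groups. The RPKM values, counts scaled to the exon length and the library total, had means of 65.9 for IFI6 and 57.0 for ISG15 in control, then 17.1 for IFIT1, 12.7 for OAS3, 6.86 for IFIT3, 5.40 for IFIT2, 4.39 for OAS1, 2.80 for MX1, 1.71 for IFI27 and 1.27 for OAS2. In 25(OH)D they ran from 162 for IFI6 and 127 for ISG15 down to 2.74 for IFI27 and 2.61 for OAS2. Neighbours whose libraries overlapped were IFI6 and ISG15, IFIT2 and OAS1, and IFI27 and OAS2 in control, and OAS3 and IFIT3, and IFI27 and OAS2 in 25(OH)D. IFI6 and ISG15 were well above the other 8 genes in both groups.

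The rest of the pathway was described through lists by role, with 149 genes listed, 130 in the table and 105 tested. Of the 105, 52 were called higher (49.5%, against 17.3% of all genes) and 9 lower (8.57%, against 16.5%), with a median log2 fold change of 0.26. The lists were chosen with earlier results of these data known, so their counts are descriptions. The counts of each list below are to be read beside these shares of all genes.

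Close relatives of the effector genes did not all move with them. OASL, an OAS-like protein without synthetase activity, rose from 2.76 ± 0.505 to 5.55 ± 0.321 CPM (SD, n = 3; log2 fold change 1.0, SE 0.159, edgeR adjusted p = 1.95e-04) and was the single one of 5 tested relatives that was called. IFI27L1, the neighbour of IFI27 in its family, had a log2 fold change of -0.01. MX2, IFIT5 and IFI27L2 had log2 fold changes of 0.45, 0.14 and 0.05 and did not pass the test, and IFIT1B had too few counts to be tested.

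ISG15 is joined to its targets by a cascade of an activating enzyme, a conjugating enzyme and ligases, and is removed by USP18. Of the 8 genes of this group, 4 were called higher and 2 lower. HERC6, a ligase of the HERC family, rose from 18.9 ± 2.07 to 43.9 ± 4.95 CPM (SD, n = 3; log2 fold change 1.22, SE 0.0923, edgeR adjusted p = 1.4e-07). USP18, the ISG15 protease and an inhibitor of type I interferon signalling, had 65.1, 60.0 and 54.7 CPM in control and 92.5, 90.6 and 84.2 CPM in 25(OH)D (log2 fold change 0.57, SE 0.0633, edgeR adjusted p = 6.67e-06). The fall in this group with the smallest p was that of USP41, a near copy of USP18 whose reads may be shared with it, with at most 0.582 CPM in any library and a log2 fold change of -1.50 (edgeR adjusted p = 0.0282).

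Among genes named after their values were seen, the conjugating enzyme UBE2L6 rose by 0.68 (log2; SE 0.113, edgeR adjusted p = 2.73e-04). The activating enzyme UBA7, with 0.652 to 0.865 CPM in control and 0.832 to 1.54 CPM in 25(OH)D, overlapped between the groups (log2 fold change 0.64, edgeR adjusted p = 0.137). HERC5, the main ISG15 ligase in human cells, also overlapped, at 4.05 to 5.62 CPM in control and 3.38 to 4.61 CPM in 25(OH)D (log2 fold change -0.36, edgeR adjusted p = 0.13).

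Of 53 other interferon-induced effectors tested, 33 were called higher and 2 lower, with a median log2 fold change of 0.34. SP100, a component of PML nuclear bodies, had the smallest p of the rises, from 38 ± 2.24 to 76.6 ± 3.48 CPM (SD, n = 3; log2 fold change 1.01, SE 0.0591, edgeR adjusted p = 7.98e-09). APOBEC3B, a cytidine deaminase that edits viral and tumour DNA, had 30.7, 30.5 and 28.8 CPM in control and 18.3, 18.8 and 16.8 CPM in 25(OH)D. It was thus lower in every 25(OH)D library (log2 fold change -0.74, SE 0.07, edgeR adjusted p = 1.3e-06). RSAD2, the antiviral enzyme viperin, was named after its values were seen, and it overlapped between the groups at 7.85 to 12.6 CPM in control and 11.0 to 12.4 CPM in 25(OH)D (log2 fold change 0.32, edgeR adjusted p = 0.127).

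Genes of the interferon-gamma response were less uniform, with 3 of 7 tested called higher and 1 lower. Their log2 fold changes ran from -0.16 to 2.17. The median of 0.02 was the value of SOCS1, which had at most 22 counts in any library. CD274 and GBP3, named after their values were seen, were called higher, by 2.17 and 1.25 on the log2 scale. GBP2, a guanylate-binding GTPase, rose from 14.2 ± 0.653 to 25.2 ± 0.665 CPM (SD, n = 3; log2 fold change 0.83, SE 0.0717, edgeR adjusted p = 5.13e-07). WARS, the tryptophanyl-tRNA synthetase that interferon-gamma induces, fell by 0.16 on the log2 scale (SE 0.056, edgeR adjusted p = 0.0452). On the opposite strand WARS shared 287 of its 6358 exon bases with WDR25 and 385 with RP11-638I2.8, so its value is uncertain. The difference between the 10 effector genes and this group was not tested.

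**Figure D4:**
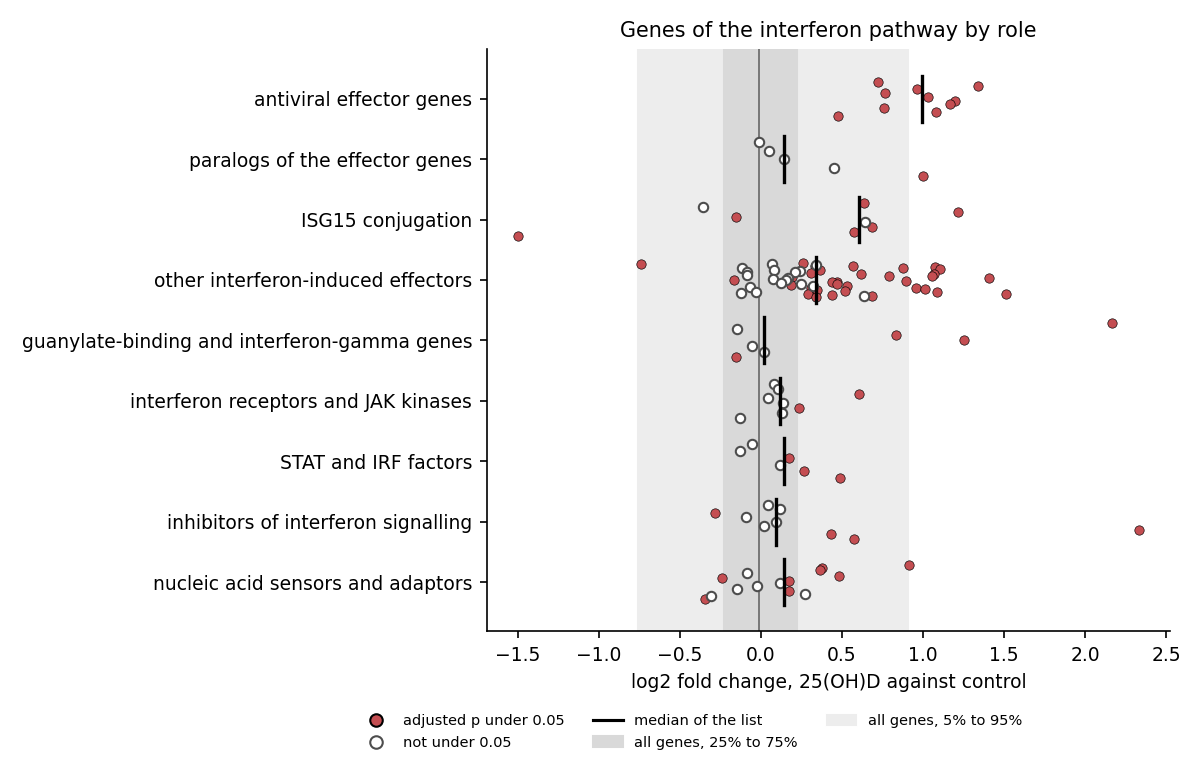
Log2 fold change of 25(OH)D against control for tested genes of the lists shown, by role, with filled points for an adjusted p under 0.05, a bar for the median of each list, and grey bands for the middle 50% and 90% of all genes tested. The 10 effector genes lie between 0.47 and 1.34, and the medians of the points shown in the other lists lie between 0.02 and 0.60.

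Upstream of the effectors, interferon transcripts were at the limit of detection. Of 22 interferon genes listed, 6 were in the table and none had enough counts to be tested. The highest count of any of them in any library was 5, for IFNL1 in control replicate 2. With a count of 3 worth at most 0.0921 CPM, lower levels were not detectable at this depth.

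The type I interferon receptor chains differed little between the groups. IFNAR1 had 40.6 to 42.9 CPM in control and 43.4 to 46.5 CPM in 25(OH)D (log2 fold change 0.08, SE 0.0564, edgeR adjusted p = 0.293). IFNAR2 was scarcer, at 2.22 to 2.62 CPM in control and 2.27 to 2.96 CPM in 25(OH)D (log2 fold change 0.10, SE 0.182, edgeR adjusted p = 0.711). Its value is uncertain, since of its 4614 exon bases 432 were shared with AP000295.9 on the same strand and 1803 with IL10RB-AS1 on the opposite strand. IFNGR1, a chain of the interferon-gamma receptor, rose from 23.3 ± 0.477 to 35.5 ± 2.58 CPM (SD, n = 3; log2 fold change 0.61, SE 0.0683, edgeR adjusted p = 7.92e-06), and in all 2 of the 8 receptor and JAK kinase genes tested were called higher and none lower. TYK2, the kinase bound to IFNAR1, had the smallest p of the falls in that list without passing the test (log2 fold change -0.13, edgeR adjusted p = 0.144).

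STAT2 and IRF9, subunits of ISGF3, were both called higher. STAT2 had 20.9, 21.9 and 24.3 CPM in control and 32.3, 31.9 and 29.8 CPM in 25(OH)D (log2 fold change 0.49, SE 0.0725, edgeR adjusted p = 1.1e-04). IRF9, the DNA-binding subunit, had 104.1, 100.2 and 104.2 CPM in control and 120.2, 123 and 127 CPM in 25(OH)D (log2 fold change 0.26, SE 0.0429, edgeR adjusted p = 2.41e-04). Its value is uncertain, since a clone-named gene on the same strand shared 1838 of its 3794 exon bases and had 27428 counts.

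IRF7, an interferon-induced factor that amplifies the production of interferon, overlapped between the groups at 20.6 to 24.6 CPM in control and 24.4 to 25.3 CPM in 25(OH)D (log2 fold change 0.12, SE 0.0756, edgeR adjusted p = 0.27). IRF2, a factor that competes with activating IRFs, had the smallest p of the falls among these factors (log2 fold change -0.13, edgeR adjusted p = 0.237).

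Inhibitors of the pathway went in both directions. SOCS3, a feedback inhibitor of JAK kinases, rose from 1.07 ± 0.283 to 5.39 ± 0.677 CPM (SD, n = 3; log2 fold change 2.33, SE 0.206, edgeR adjusted p = 6.67e-07). PIAS1, an inhibitor of STAT proteins, fell by 0.29 on the log2 scale (SE 0.0553, edgeR adjusted p = 0.001). It shared 2933 of its 10776 exon bases with RP11-315D16.2 and 3260 with CALML4, both on the opposite strand. The value of PIAS1 is uncertain, since whether the counting used strand is not given in the sources used here. Of the 9 inhibitors, 3 were called higher (33.3%, against 17.3% of all genes) and 1 lower (11.1%, against 16.5%). Their median log2 fold change was 0.09.

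Sensors of viral nucleic acid and their adaptors showed 6 of 14 tested genes called higher and 2 lower. DDX58, which encodes the RNA sensor RIG-I and is itself interferon-induced, had 84.2, 71.0 and 69.9 CPM in control and 146, 149 and 129.6 CPM in 25(OH)D (log2 fold change 0.91, SE 0.0705, edgeR adjusted p = 1.68e-07). TRAF3, an adaptor between the sensors and their kinases, fell by 0.35 on the log2 scale (SE 0.0836, edgeR adjusted p = 0.00513).

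**Figure D5:**
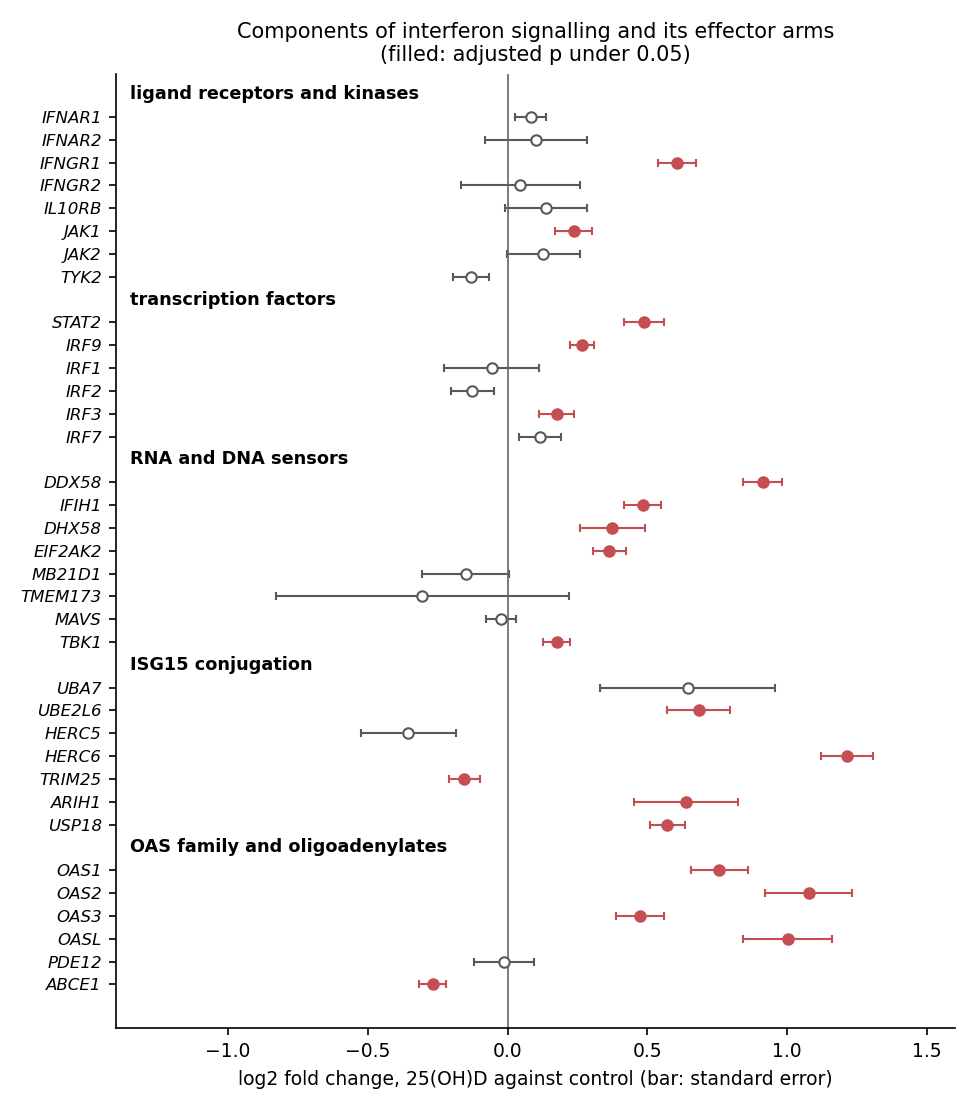
Log2 fold change of 25(OH)D against control for receptors, kinases, transcription factors, sensors, ISG15 conjugation genes and the OAS family, with bars for the standard error and filled points for an adjusted p under 0.05. HERC6 lies farthest to the right of the genes shown, at 1.22, STAT2 and IRF9 are filled and above 0, and IFNAR1, IFNAR2 and IRF7 are open points near 0.

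Genes that flank the effector genes on the chromosome were also measured. They were the nearest tested genes on each side that overlapped no effector gene and belonged to none of the lists, so the closer relatives MX2 beside MX1, IFIT5 beside IFIT1, and IFI27L1 and IFI27L2 beside IFI27 were not counted, and none of these relatives was called. Of the 12 genes chosen in this way, 5 were called higher (41.7%, against 17.3% of all genes) and 1 lower (8.33%, against 16.5%). Several lay far away, such as PTPN11 at 396864 bases from OAS1 and STAMBPL1 at 308541 bases from IFIT2. TMPRSS2, a membrane serine protease that androgens induce in prostate cells, ends 5337 bases from MX1 and had 269, 292 and 291 counts in control and 2658, 2802 and 2253 counts in 25(OH)D, a log2 fold change of 3.30 (SE 0.0794, edgeR adjusted p = 5.13e-13). DSCAM-AS1, on the other side and 1034946 bases from MX1, beyond MX2, had a log2 fold change of 0.99. The flanks of the OAS cluster were PTPN11, at 0.10, and RASAL1, which fell by 1.21 on the log2 scale (edgeR adjusted p = 0.00223). At the IFIT cluster the log2 fold changes were 0.35 for STAMBPL1 and 0.02 for PANK1. ISG15 lay between HES4 at 0.46 and AGRN at 0.18, of which neither passed the test. The genes beside IFI6 were AHDC1, called higher at 0.49, and FAM76A at -0.22, and those beyond the relatives of IFI27 were DDX24 at 0.09 and SERPINA1 at 0.41, of which the last 3 did not pass.

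Reads of some effector genes could be shared with overlapping genes, and whether the counting used strand is not given in the sources used here. On the opposite strand, AP001610.5 shared 236 exon bases with MX1 and moved with it, from 172, 137 and 102 counts in control to 336, 296 and 220 counts in 25(OH)D (log2 fold change 1.19, SE 0.167, edgeR adjusted p = 6.81e-05). RP1-71H24.1 shared 92 exon bases with OAS1 on the opposite strand and had a log2 fold change of 0.77 (SE 0.116, edgeR adjusted p = 1.32e-04). Both partners had fewer counts than the effector gene. LIPA shared 65 exon bases with IFIT2, and RP11-54O7.10 shared 36 with ISG15, both on the opposite strand. Neither was called (edgeR adjusted p = 0.132 and 0.0775). RP11-149I23.3, on the strand of IFIT2, shared 356 of its 4101 exon bases and had 7 counts over the 6 libraries. Of the stretches of 100 bases in the transcripts of the 10 genes, none was found in another gene for 9 of them, and 6.27% of those of IFIT2 were found in AL353751.1.

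Markers of other cell types bear on the label of the samples. The summed level of the 8 luminal and androgen receptor markers was 4365 to 4501 CPM in control and 4524 to 4556 CPM in 25(OH)D. The leukocyte markers, 6 of 7 in the table, summed to 4.52 to 5.92 CPM in control and 14.0 to 19.6 CPM in 25(OH)D, and nearly all of it was CD68, a lysosomal protein, at 4.01 to 5.58 CPM in control and 13.0 to 19.3 CPM in 25(OH)D. The defining leukocyte markers PTPRC, CD3E and MS4A1 had at most 6 counts in any library, and CD14 had at most 8. HLA-DRA had 4 to 20 counts in control and 8 to 26 counts in 25(OH)D and was not called (log2 fold change 0.37, edgeR adjusted p = 0.66). Fibroblast markers summed to 36.4 to 39.0 CPM in control and 32.0 to 34.6 CPM in 25(OH)D. Nearly all of this was COL1A1, at 35.9 to 38.5 CPM in control and 32.0 to 34.3 CPM in 25(OH)D (edgeR adjusted p = 0.032). COL1A2, DCN and LUM had at most 16, 6 and 2 counts in any library, too few to be tested. Endothelial markers, 2 of 3 in the table, summed to at most 0.489 CPM. The 3 basal markers summed to 0.480 to 0.899 CPM in control and 0.522 to 1.17 CPM in 25(OH)D, and did not move as one. TP63 had 12, 26 and 19 counts in control and 3, 2 and 2 counts in 25(OH)D and was called lower (edgeR adjusted p = 0.00193), KRT5 overlapped between the groups, and KRT14 had 4, 6 and 1 counts in control and 24, 8 and 12 counts in 25(OH)D, too few to be tested.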

How the data were processed

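mRNA of MDA-MB-453 cells was sequenced from 3 control and 3 25(OH)D libraries, and groups and replicate numbers were taken from the labels. The authors deposited whole-number counts per gene without normalization, and RPKM values, which equalled the count divided by the exon length and by the total of the library. The submitters' processing notes name Trimmomatic 0.36, Subread 1.5.1 with featureCounts, edgeR 3.12.1 and GRCh38; the aligner's settings and the annotation release are not given in the sources used here. The totals of 33268860 to 40928176 counts per library limit the precision at low counts, and a count of 3 was taken as the floor.

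After TMM normalization and the default low-count filter (minimum count 10), 25(OH)D was compared with control by edgeR's quasi-likelihood test (edgeR 4.0.16, R 4.3.3), with group as the single term. P-values were adjusted by the Benjamini-Hochberg method across all 18183 genes tested, and the SE is the absolute log2 fold change divided by the square root of F. The common biological variation between replicates had a coefficient of 0.0788. On simulated counts with known changes of 1 (log2), 63 of 64 genes with a mean of at least 100 counts were recovered among 17896 genes, and at 0.5 it was 44 of 58. Over genes of any count, 72 of 100 changed genes were recovered at 1 and 45 of 100 at 0.5, with 5 false calls in each. Replicates differed by more than sampling noise (chi-square per gene 3.85 to 11.2). Alternatives used DESeq2 1.42.0, limma 3.58.1 on log2 RPKM, other normalizations and filters, the replicate number as a block, the limits of the study, and the omission of each library. Promoter windows came from RefSeq, and figures were drawn with Python 3.11.15 and matplotlib 3.10.9.

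The 10 genes and the lists were chosen with earlier results of these data known. The rule for named genes took all 10, in each list the tested gene with the smallest p in each direction, STAT2, IRF9, IRF7, IFNAR1, IFNAR2 and USP18, the flanking genes, and for each of the 10 the gene with the highest Pearson r of log2 CPM over the 6 libraries. PDE12, MX2, IFIT5, IFI27L2, UBE2L6, UBA7, HERC5, RSAD2, SOCS1, CD274, GBP3, the overlapping genes and the leukocyte, fibroblast and basal markers fall outside the rule and were named after their values were seen. Protein sequences were not used here, and some genes covered by the rule are not reported here.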

Additional observations from a re-analysis of the deposited data

How the results depend on the processing

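All 10 effector genes were called higher and none lower under each of the 15 alternatives in normalization, filter, test, scale, replicate block or library left out, and at the limits of the study the calls were 5 higher and 0 lower. The largest adjusted p of any of the 10 under these was 0.0299, for OAS3 with limma on log2(RPKM + 1). Leaving out 1 library at a time moved the log2 fold change of OAS2 between 0.90 and 1.33, that of OAS3 between 0.42 and 0.59 and that of IFI6 between 1.26 and 1.45. Of the 105 other pathway genes, 52 were called higher and 9 lower. The limits of the study gave 13 and 1, and leaving out 1 library gave 45 to 54 higher and 4 to 7 lower, with 5 lower without control replicate 1, 2 or 3 and 4 without 25(OH)D replicate 2, fits that have fewer samples. With the replicate number as a block, 10 effector genes were higher, 0 lower, and 53 pathway genes were higher and 8 lower. Samples with the same number did not deviate together (correlations of deviations -0.07, -0.01 and -0.05), so the numbers were not treated as pairs. Scaling to library totals changed the split over all genes from 3138 higher and 3004 lower to 2689 and 3667, and upper-quartile factors changed it to 2705 and 3613, with no change in the calls of the 10 genes. The depth of the libraries limits the interferon genes, which had at most 5 counts.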

Other observations

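The motif of the response element was also counted in the promoter windows of the other pathway genes, as a description. Of 96 pathway genes with a window, 34 held it (35.4%). Among those tested, 17 of 25 genes with the motif were called higher and 1 lower, with a median log2 fold change of 0.48, and 22 of 51 genes without it were called higher and 5 lower, with a median of 0.17. Of all genes tested, 17.3% were called higher and 16.5% lower. The difference between the genes with and without the motif was not tested.

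Over the 6 libraries, the gene whose log2 CPM was most like that of each effector gene was mostly outside the pathway. All these correlations share the split into control and 25(OH)D, and between 705 genes (OAS3) and 2306 genes (IFI6) of 18182 had a Pearson r over 0.9. DDX60, a helicase of the interferon response, was nearest to IFIT1 (r = 0.998), and MX1 and IFIT1 were each other's nearest effector gene (r = 0.998). The nearest genes of the others were KCNN4 for OAS1, ADGRE5 for OAS2, DRG2 for OAS3, GTF3C6 for IFIT2, AHCY for IFIT3, RP11-120M18.2 for MX1, RP11-89H19.1 for ISG15, TINCR for IFI6 and RP1-228P16.1 for IFI27, with r between 0.994 and 0.999. Their log2 fold changes ranged from 0.18 for RP11-120M18.2 to 3.69 for ADGRE5, so a like pattern over the libraries went with changes of unlike size.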
